A study of Mus musculus with 2 samples.

Results

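The miR-15 and miR-16 family was described here through 5 of its genes, Mir15a, Mir15b, Mir16-1, Mir16-2 and Mir195a, chosen by symbol from the 1973 miRNA genes with a row in both count tables. All 5 had a row and at least 100 counts in both libraries. The libraries are microRNA sequencing of small RNA from the forebrain of healthy B6NCrl mouse embryos at embryonic day 16.5, with no genetic change or treatment named. They form a single group of 2 biological replicates, each a pool of male and female embryos with its own biosample record, 41 embryos in replicate 2 and an unstated number in replicate 1. No second tissue, stage or condition exists to compare with. The data give how many reads were placed on each gene at this stage and by how much that number differed between the 2 libraries. For Mir16-1 and Mir16-2, which share a mature sequence, these reads may not be the full level. Each pool gave 1 library, so a difference between pools cannot be told apart from one of library preparation or sequencing.

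A miRNA is a short RNA, cut from a hairpin precursor, that guides the silencing of messenger RNAs through pairing of its seed, the bases 2 to 8 from its 5′ end. Members of this family share a seed and are known to restrain the step from G1 to DNA synthesis, with D-type and E-type cyclins, Cdk6, Chek1 and Wee1 among their targets, and to lower the survival factor Bcl2. Loss of the Dleu2 cluster is known from human chronic lymphocytic leukaemia. At the sampled stage the forebrain holds dividing progenitors beside newly formed neurons, and bulk RNA cannot separate more cells of one kind from more RNA per cell.

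The sequences below show what the members share and why their counts are not equally certain. They are RefSeq sequences on GRCm38.p6, written 5′ to 3′ with the seed in capitals, and each carries the same 7 seed letters.
miR-15a-5p, from Mir15a, chr14:61632075-61632096, minus strand: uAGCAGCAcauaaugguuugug
miR-15b-5p, from Mir15b, chr3:69009775-69009796, plus strand: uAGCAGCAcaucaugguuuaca
miR-16-5p, from Mir16-1 at chr14:61631936-61631957, minus strand, and from Mir16-2 at chr3:69009918-69009939, plus strand: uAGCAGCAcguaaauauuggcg
miR-195a-5p, from Mir195a, chr11:70235062-70235082, plus strand: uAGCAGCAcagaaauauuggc
miR-322-5p, from Mir322, chrX:53054306-53054327, minus strand, a relative with the same seed: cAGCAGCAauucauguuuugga
miR-497a-5p, from Mir497, chr11:70234730-70234751, plus strand, the neighbour of Mir195a: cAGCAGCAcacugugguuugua

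The 5 members gave 4 distinct 5p sequences, because Mir16-1 and Mir16-2 encode the same one. The 5p forms of Mir15a and Mir15b matched at 18 of 22 bases when aligned from base 1, and those of Mir15a and Mir16-1 at 16 of 22. A whole 5p sequence of Mir15a, Mir15b or Mir195a was held by 1 annotated miRNA gene each, and that of miR-16 by 2. The longest stretch that the 5p form of Mir195a shared with another miRNA gene was 16 bases, with Mir195b. For Mir15a and Mir15b it was 11 bases, with each other.

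The precursors of the pair that encode miR-16-5p are printed whole, with the longest stretch they share, 23 bases, in capitals.
Mir16-1 precursor, chr14:61631880-61631972, minus strand: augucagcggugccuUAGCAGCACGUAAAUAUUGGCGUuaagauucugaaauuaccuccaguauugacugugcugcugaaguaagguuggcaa
Mir16-2 precursor, chr3:69009902-69009996, plus strand: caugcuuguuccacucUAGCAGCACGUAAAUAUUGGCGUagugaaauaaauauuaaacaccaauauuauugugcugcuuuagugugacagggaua
The shared stretch holds all of miR-16-5p and 1 base after it, so a read of exactly the annotated 5p form fits both precursors. The 3p arms differ and fit 1 gene each.
miR-16-1-3p, chr14:61631894-61631915, minus strand: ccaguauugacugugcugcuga
miR-16-2-3p, chr3:69009960-69009981, plus strand: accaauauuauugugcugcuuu
The 3p arms were identical at 12 of 22 bases. In the deposited tables multimapping reads have a row of their own and belong to no gene, 43.3% of all reads in replicate 2 and 40.5% in replicate 1. The counts of Mir16-1 and Mir16-2 are therefore read as reads placed uniquely, and they set no upper limit on the amount of miR-16. The tables give 1 count per gene, so reads of the 5p and 3p arms cannot be told apart.

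Positions follow GENCODE M21 on GRCm38. Mir15a (ENSMUSG00000093007.1, chr14:61632027-61632110) lay in an intron of the non-coding gene Dleu2, and Mir16-1 (ENSMUSG00000092995.1) overlapped an exon of an annotated Dleu2 transcript, with starts 147 bp apart. Mir15b (ENSMUSG00000065580.1, chr3:69009772-69009835) and Mir16-2 (ENSMUSG00000065606.1) lay in an intron of Smc4, which encodes a condensin subunit needed for chromosome condensation, with starts 130 bp apart. Mir195a (ENSMUSG00000065411.2, chr11:70235042-70235135) overlapped no other annotated gene, and Mir497 started 325 bp away on the same strand. No annotated gene lay on the opposite strand of a member, and opposite-strand reads came to 1 for Mir16-2 in replicate 1 and 0 elsewhere among the members.

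The family took a little over 1% of the uniquely placed miRNA reads, and most of that came from the Dleu2 cluster. The 5 members together held 58306 of 4158686 gene-strand counts in replicate 2 and 60854 of 5060112 in replicate 1, or 1.40% and 1.20%. The mean share was 1.302% ± 0.141 (SD, n = 2). The Dleu2 cluster of Mir15a and Mir16-1 held 1.04% ± 0.107, the Smc4 cluster of Mir15b and Mir16-2 held 0.189% ± 0.0239, and Mir195a 0.0735% ± 0.0104.

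Levels are given as CPM, counts per 1000000 gene-strand counts of a library. Each read covers a mature miRNA, so counts were not divided by precursor length. Brackets hold exact Clopper-Pearson 95% intervals, which hold counting error alone. The labels describe no molecular identifiers, so each read is counted as it stands. Mir15a had the most uniquely placed reads of the members in both libraries. It had 34378 counts, 8267 CPM (8180 to 8354), in replicate 2 and 32998 counts, 6521 CPM (6451 to 6592), in replicate 1. It ranked 28 of all genes by mean level, and its libraries lay 1.27-fold apart.

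Mir16-1, its partner on the Dleu2 transcript, came second by uniquely placed reads. It had 11990 counts, 2883 CPM (2832 to 2935), in replicate 2 and 15787 counts, 3120 CPM (3071 to 3169), in replicate 1. Here replicate 2 was the lower library on the CPM scale, in contrast to Mir15a. The rank of Mir16-1 by mean level was 55.

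Mir15b, the Smc4 counterpart of Mir15a, followed. It had 6491 counts, 1561 CPM (1523 to 1599), in replicate 2 and 5998 counts, 1185 CPM (1156 to 1216), in replicate 1, and ranked 82. Mir195a, whose product is known to limit division of heart muscle cells after birth, was next, with 3361 counts, 808 CPM (781 to 836), in replicate 2 and 3344 counts, 661 CPM (639 to 684), in replicate 1, and ranked 97. Both genes had more CPM in replicate 2, as did Mir15a.

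Mir16-2 had the fewest uniquely placed reads of the members. It had 2086 counts, 502 CPM (480 to 524), in replicate 2 and 2727 counts, 539 CPM (519 to 560), in replicate 1, and ranked 119. Like Mir16-1, it was lower in replicate 2 on this scale.

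**Figure D1:**
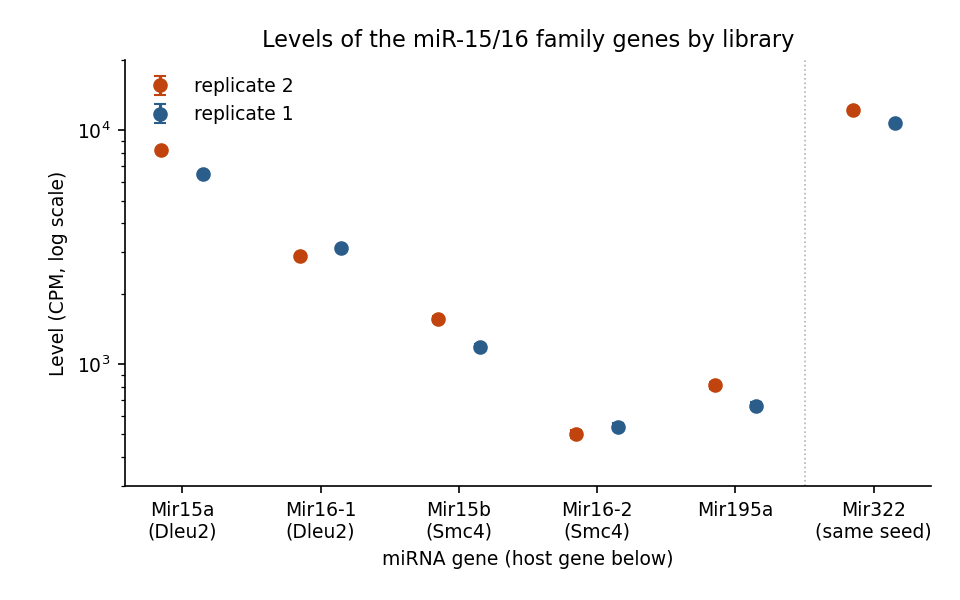
Level of each family gene and of Mir322 in the 2 libraries, in CPM on a log scale; bars are exact 95% intervals of the counts and are mostly smaller than the points. Mir15a, Mir15b, Mir195a and Mir322 sit higher in replicate 2, and both Mir16 genes sit lower.

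The order of the members was the same in both libraries, Mir15a, Mir16-1, Mir15b, Mir195a and Mir16-2 from high to low. The means were 7394 ± 1234, 3002 ± 167, 1373 ± 266, 735 ± 104 and 520.3 ± 26.4 CPM (SD, n = 2). Neighbours in this order did not overlap between libraries. The closest were Mir195a, at least 661 CPM, and Mir16-2, at most 539 CPM. The places of both Mir16 genes rest on uniquely placed reads and are uncertain for that reason. All 5 levels stood above the median of the 438 genes that reached 5 counts in each library, at 66.7 CPM.

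**Figure D2:**
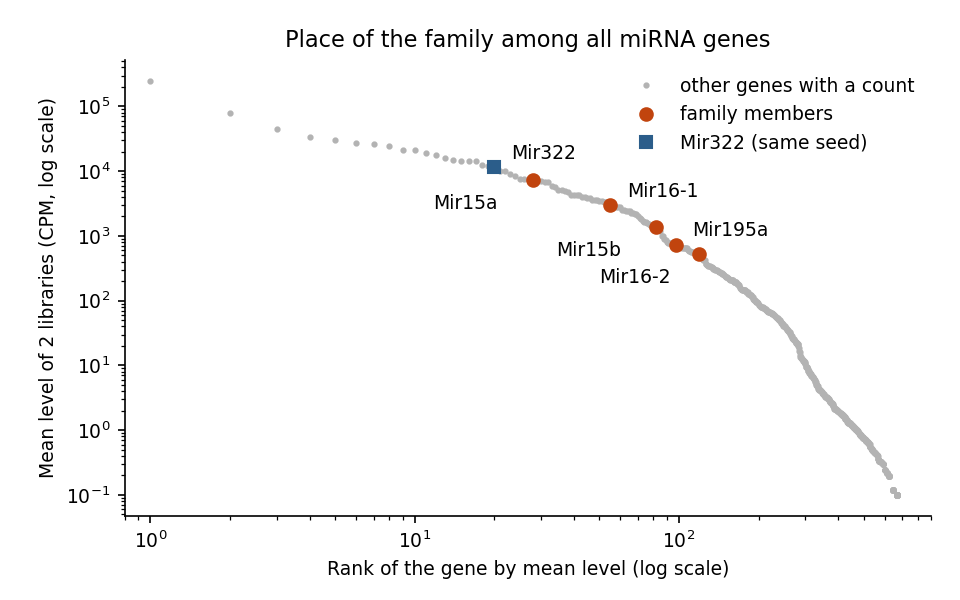
Mean level of every gene with a count, in CPM, against its rank, both on log scales, with the family members and Mir322 marked. The members fall between ranks 28 and 119, on the upper part of the curve.

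Of all uniquely placed reads on the members, Mir15a held 56.6% ± 3.35, Mir16-1 23.3% ± 3.80, Mir15b 10.5% ± 0.902, Mir195a 5.63% ± 0.190 and Mir16-2 4.03% ± 0.639 (SD, n = 2). The share of Mir15a was 59.0% in replicate 2 and 54.2% in replicate 1. The share of Mir16-1 was 20.6% in replicate 2 and 25.9% in replicate 1. In percentage points of uniquely placed reads, the libraries differed most in these 2 genes, which also held the largest shares. As ratios, given below, both Mir16 genes shifted against every other member.

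The seed of the members was found at bases 2 to 8 of 11 mature miRNAs from 11 genes in the RefSeq table, and 10 of these genes had a row. Outside the members, Mir322, the mouse counterpart of human miR-424 in a cluster on the X chromosome, was the only one of the 5 with a row that had more than 1 count. It had 12185 CPM in replicate 2 and 10702 CPM in replicate 1, a mean of 11444 ± 1049 CPM, and ranked 20. Among genes with this seed and a row, Mir322 alone exceeded Mir15a, by 1.47-fold in replicate 2 and 1.64-fold in replicate 1. The members held 53.5% of the reads on genes with this seed in replicate 2 and 52.9% in replicate 1, and Mir322 held 46.5% in replicate 2 and 47.1% in replicate 1. These shares cover uniquely placed reads on genes with a row. They leave out multimapping reads of miR-16-5p and any reads of Mir497.

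Mir195b had 0 counts in replicate 2 and 1 in replicate 1, and Mir6342, Mir6353 and Mir6419 had 0 in both. With 3 counts as the limit, a count of 0 allows up to 0.721 CPM in replicate 2 and up to 0.593 CPM in replicate 1. Mir497, which lies beside Mir195a and is known to be made from the same transcript, has no row of its own here and its gene-strand level was not analysed.

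The genes with the most similar levels were found by the Euclidean distance of log2(CPM + 1) over the 2 libraries, which uses 2 values per gene and says little beyond matching level. Mir23a was nearest to Mir15a, at 8332 CPM in replicate 2 and 6612 CPM in replicate 1, followed by Mir23b. Mir429 and Mirlet7c-2 were nearest to Mir15b, Mir484 and Mir872 to Mir16-1, Mir330 and Mir185 to Mir16-2, and Mir674 and Mir186 to Mir195a.

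Between the libraries, Mir15a, Mir15b and Mir195a were higher in replicate 2 and the Mir16 genes were close to equal. The comparison was an exact binomial test of the 2 counts of each gene, two-sided, with totals scaled by TMM and Benjamini-Hochberg adjustment over the 466 genes with at least 10 counts in sum. It compares 2 libraries beyond counting noise, not conditions. Of all genes tested, 45.3% were called at an adjusted p under 0.05, 23.4% as higher in replicate 2 and 21.9% as lower. Of the 5 members, all of which passed the count filter, 3 were called higher and 0 lower, with a median log2 ratio of 0.43, beside 0.01 over all tested genes. The members are well counted, and such genes were called more often. With a filter of 100 counts in sum, 203 of 299 genes were called in either direction, and 3 members.

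Mir15b had the largest log2 ratio of replicate 2 over replicate 1 among the members, 0.54 (95% interval 0.49 to 0.59), and the exact binomial test gave an adjusted p of 5.30e-96. For Mir15a the ratio was 0.49 (0.46 to 0.51), with an adjusted p of 1e-300, the lowest value written. For Mir195a it was 0.43 (0.36 to 0.504), with an adjusted p of 7.55e-34. Mir322 also rose, by 0.33 on the log2 scale.

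Mir16-1 had a log2 ratio of 0.03 (-0.0042 to 0.06), with an adjusted p of 0.159 by the same exact test. Mir16-2 had 0.04 (-0.04 to 0.12), with an adjusted p of 0.505. With unscaled library totals every log2 ratio was 0.14 lower, and both Mir16 genes were then called lower in replicate 2, at -0.11 for Mir16-1 and -0.10 for Mir16-2, while the other 3 members stayed called higher. With that scaling 47.6% of all tested genes were called, 14.4% as higher and 33.3% as lower in replicate 2.

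The calls went beyond counting noise, and many other genes differed by similar amounts. Among the 273 genes with at least 100 counts in both, the median absolute log2 ratio was 0.24. Of those genes, 82.1% had a smaller absolute ratio than Mir15b, 78.0% than Mir15a, 72.5% than Mir195a, 8.79% than Mir16-2 and 5.86% than Mir16-1. In edgeR's exact test with a preset biological coefficient of variation of 0.2, 0 of 466 genes and 0 members were called. There the unadjusted p was under 0.05 for 20 genes and 0 members, and was 0.189 for Mir15b, the lowest of the members. A ratio of the size of Mir15b could not reach 0.05 with this preset, so the absence of calls does not show that the members were equal. The coefficient that edgeR estimated from these libraries, treated as 1 group, was 18.1%. It came from the same differences between the libraries and is no separate check of the preset.

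**Figure D3:**
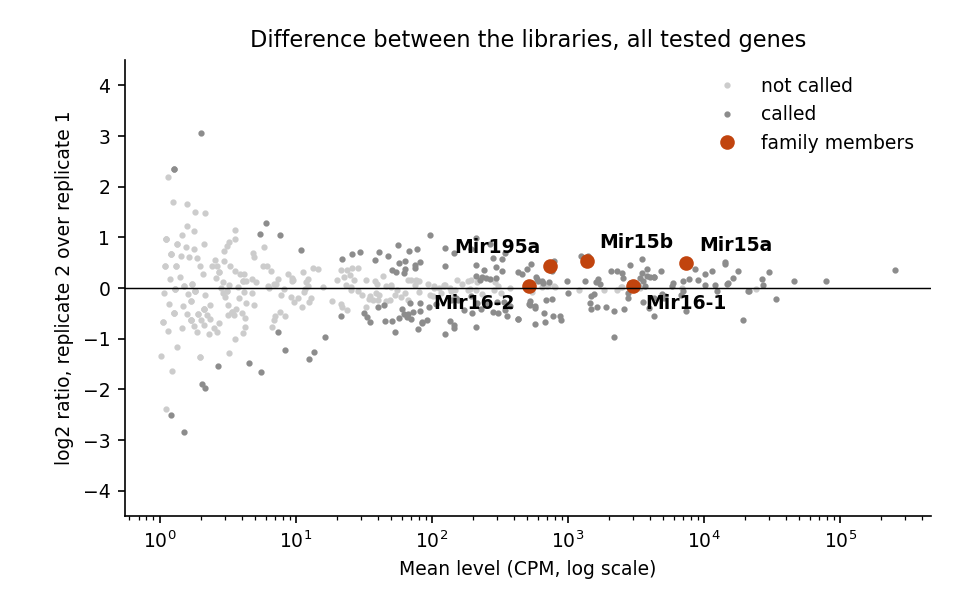
Log2 ratio of replicate 2 over replicate 1, with TMM scaling, against mean level in CPM on a log scale for all 466 tested genes, darker where the exact binomial test called the gene. Mir15a, Mir15b and Mir195a lie between 0.43 and 0.54, and both Mir16 genes lie next to 0.

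The ratios of members within a library do not depend on library scaling, and they separated the Mir16 genes from the rest. Within the Dleu2 cluster, Mir15a had 2.87 counts per count of Mir16-1 in replicate 2 (exact 95% interval 2.81 to 2.93) and 2.09 in replicate 1 (2.05 to 2.13). Within the Smc4 cluster, Mir15b had 3.11 counts per count of Mir16-2 in replicate 2 (2.96 to 3.27) and 2.20 in replicate 1 (2.10 to 2.302). In both clusters the ratio was higher in replicate 2, by 1.37-fold at Dleu2 and by 1.41-fold at Smc4.

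Between the clusters, genes of the same kind had ratios that overlapped in the 2 libraries. Mir16-1 over Mir16-2 was 5.75 in replicate 2 (5.49 to 6.02) and 5.79 in replicate 1 (5.56 to 6.03). Mir15a over Mir15b was 5.30 in replicate 2 (5.16 to 5.44) and 5.502 in replicate 1 (5.35 to 5.66). Of the 10 pairs of members, the intervals of the libraries overlapped in 4, which were Mir16-1 with Mir16-2 and the 3 pairs among Mir15a, Mir15b and Mir195a. They did not overlap in the other 6, each of which sets a Mir16 gene against a gene of another kind.

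**Figure D4:**
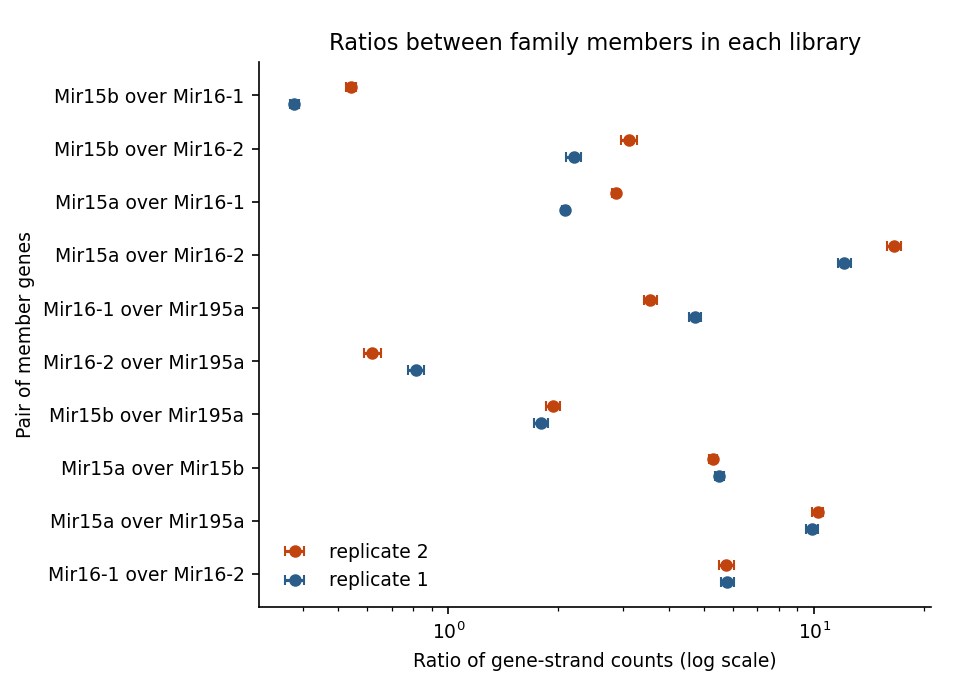
Ratio of gene-strand counts for each of the 10 pairs of members on a log scale, with exact 95% intervals, in replicate 2 and replicate 1. The upper 6 pairs, each with 1 Mir16 gene, differ between libraries beyond their intervals, and the lower 4 do not.

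Such intervals hold counting error only, and the spread between genes puts the shift in scale. The log2 ratios of Mir15a and Mir16-1 differed by 0.46, and those of Mir15b and Mir16-2 by 0.50. Over all pairs of the 273 well-counted genes, the median absolute difference was 0.37, and 40.3% of pairs differed by at least as much as Mir15a and Mir16-1. Over 268 other pairs on 1 strand with starts within 10 kb, the median was 0.21, and 23 pairs, or 8.58%, differed by as much. Pairs share genes and clusters and are given as a description. The sharing of sequence between the Mir16 genes moves with this pattern, and its part in the result was not tested.

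Other miRNAs known to act on cell division were taken from a pair of lists. Of 9 genes that restrain G1 or proliferation in other tissues, from the Mir34, Mir449 and Mir26 families, 2 were called higher in replicate 2 and 0 lower under both scalings, beside 23.4% higher and 21.9% lower over all tested genes with TMM. They held 1.99% ± 0.0798 of the gene-strand counts, led by Mir26b at 16226 ± 398 CPM, Mir449a at 2869 ± 425 CPM and Mir34c at 649.7 ± 20.3 CPM. Mir26a-1 and Mir26a-2 were at 6.27 and 35.3 CPM. These are uniquely placed reads, and shared sequence was not examined for the genes of this list, so a low count here sets no upper limit. Of 5 genes that promote proliferation, which held 6.29% ± 0.113, all 5 were called higher with TMM, but 1 higher and 3 lower with unscaled totals, where all tested genes had 14.4% higher and 33.3% lower. Mir17 led them at 27023 ± 1052 CPM. The list median log2 ratio was 0.16 for the restraining genes and 0.11 for the promoting genes with TMM, and 0.01 and -0.04 with unscaled totals.

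Marker miRNAs of brain and other sources ranged widely. The 6 neural genes with a row summed to 12164 CPM in replicate 2 and 13987 CPM in replicate 1, most of it from Mir137 at 12348 ± 1260 CPM. Endothelial Mir126a was at 17805 ± 1689 CPM, with the 3 erythroid genes at 273 ± 46.3 CPM in sum and Mir223 of myeloid cells at 124 ± 38.6 CPM. The muscle list was at 22.01 ± 4.58 CPM in sum, all of it from Mir206, and 3 of its 4 genes with a row were at 0. Those were Mir133a-1, Mir133a-2 and Mir1a-1, whose precursors share 31, 31 and 28 bases with another miRNA gene, so their zeros set no limit on the level of these miRNAs. Hepatocyte Mir122 was at 81.4 ± 23.3 CPM. The multi-copy genes Mir124a-1, Mir124a-2, Mir124a-3 and Mir9-2 had means between 1.07 and 4.27 CPM and are subject to the same limit on shared sequences as Mir16. So is Mir9-3, whose precursor shares 26 bases with Mir9-2, but it was at 717 ± 27.6 CPM. Mir126a was higher in replicate 2 by 0.34 and Mir223 by 0.79 on the log2 scale, the same direction as Mir15a, Mir15b and Mir195a, as was erythroid Mir144, by 0.86. Erythroid Mir451a fell by 0.501 and Mir486, at -0.31, was not called. With TMM, Mir206 was called higher, at 0.57, and Mir122 and Mir137 lower, at -0.45 and -0.06. The other neural genes with a row were not called. Over all tested genes, 23.4% were called higher and 21.9% lower. The markers' part in the family's differences was not tested.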

How the data were processed

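The deposited tables hold raw read counts per miRNA gene, without regard to strand and for each strand, with reads placed on mm10 with the GENCODE M4 annotation per the deposited file descriptions. Which aligner, counter and trimming were used is not given in the sources used here. For the gene strand, the strand column with more reads in all was used. Rows of unassigned reads stayed out of totals: multimapping (43.3% and 40.5% of reads in replicates 2 and 1), unmapped (15.2% and 19.1%) and outside listed genes (2.82% and 2.50%). Symbols came from GENCODE M21 by identifier without version, found for 1894 of 1973 genes, and seeds from RefSeq. The members and lists were chosen with earlier results of these data known.

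CPM, shares and exact Clopper-Pearson intervals were computed in Python 3.11.15 with scipy 1.17.1. Genes with at least 10 counts in sum were tested by a two-sided exact binomial test with TMM totals from edgeR 4.0.16 (R 4.3.3), after adding 0.5 to counts for log2 ratios, with Benjamini-Hochberg adjustment and a lowest written p of 1e-300. The test was tried on simulated counts with counting noise only, which cannot show how it behaves with a spread between libraries. Alternatives were unscaled totals, DESeq2 1.42.0 size factors, count filters of 1 and 100, counts without strand, other denominators, each library alone and edgeR's exact test with a preset coefficient of variation of 0.2. With a single group, edgeR's quasi-likelihood test could not be fitted. The named genes were the members, genes with their seed, annotated neighbours, and the 2 genes nearest in level to each member. From the cell-cycle lists up to 3 of the highest mean level were named, and Mir26a-1 and Mir26a-2 besides. Every gene of the marker lists with a row was named, and so was Mir99a, the most abundant gene.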

Additional observations from a re-analysis of the deposited data

Results flagged for a closer look

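Reads on the opposite strand of Mir497b lie outside the gene-strand counts used above and exceeded the limit that a count of 0 allows. GENCODE M21 places Mir497, the neighbour of Mir195a with the same seed, on that strand. There were 3672 such reads in replicate 2 and 3351 in replicate 1, a mean of 773 ± 156 CPM (SD, n = 2), against 0 and 1 reads on the strand of Mir497b itself. They came to 1.09 reads per Mir195a read in replicate 2 and 1.002 in replicate 1.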

How the results depend on the processing

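Limits are the shared sequence of the Mir16 genes, which no setting varied, and the single group of 2 pools. No paired analysis was possible because the series holds 1 group. With unscaled totals 5 members were called, 2 of them lower in replicate 2: the log2 ratio was -0.11 for Mir16-1 and -0.10 for Mir16-2. In edgeR's exact test with a preset coefficient of variation, which adds a spread between pools, 0 members were called, 0 of them higher, and 0 of 466 genes. That setting could not call a ratio of the size of Mir15b. The other settings gave 203 to 225 called genes, 3 called members and the same directions. The family's share was 0.615% when multimapping reads were added to the denominator and 1.74% without Mir99a, the most abundant gene, by construction of the denominator. From a single library it ran from 1.20% to 1.40%, the sum of the seed relatives from 10702 to 12185 CPM, the ratio of Mir15a to Mir16-1 from 2.09 to 2.87 and that of Mir15b to Mir16-2 from 2.20 to 3.11. Counts without strand left levels within 1 SD.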
